A study of Gallus gallus with 6 samples.

Results

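Chaperone genes of the HSP70 and HSP90 families, 10 in number, were examined in abdominal fat. The birds were male broilers of the Ross strain, chickens bred for rapid growth and meat. They are HSPA2, HSPA8, HSPA4 and HSPH1 of the cytosolic HSP70 system, HSPA5 of the endoplasmic reticulum (ER), HSPA9 of the mitochondrion, the HSP90 genes HSP90AA1, HSP90AB1 and HSP90B1, and the HSP90 cochaperone CDC37. They were taken by gene symbol from a table of 15491 genes, which lists all 10, and all 10 passed the filter on low counts, as did 14743 genes in all. Poly(A) RNA was sequenced in 6 libraries. The 3 thermoneutral libraries came from birds held at 22 °C and the 3 heat stress libraries from birds held at 32 °C, in both cases between days 21 and 35 after hatching. All birds had moved to single cages on day 14 and ate the same diet. The comparison asks how long-lasting warm housing, as opposed to an acute heat shock, is reflected in the chaperone mRNA of fat. The sources state 12 chickens per treatment. Nothing in the labels says whether each library is 1 bird or a pool. Each p-value therefore reflects only how these libraries vary, which may be technical in part.

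HSP70 proteins bind short hydrophobic stretches of unfolded proteins and release them in a cycle driven by ATP, which J-domain proteins start and nucleotide exchange factors reset. HSP90 proteins act later, on partly folded clients such as kinases and steroid hormone receptors, with cochaperones that choose the client or time the cycle. Acute heat is known to switch on the cytosolic, inducible members through the transcription factor HSF1, while HSPA5 and HSP90B1 of the ER follow the load of secreted proteins through the unfolded protein response.

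Total counts per library ran from 30673333 to 45163458, and all heat stress libraries were deeper than all thermoneutral ones. Levels are in CPM: a gene's count divided by the library total, after TMM scaling, times 1e+06. The counts behind each gene in each library ran from 959 (HSP90AB1) to 96235 (HSPA2). All 8 adipocyte markers were listed, among them FABP4 and PLIN1, which were at 2758 CPM or more in every library, and their summed level was 21022 to 27440 CPM in thermoneutral and 22681 to 26056 CPM in heat stress libraries. Members went opposite ways within that sum: PLIN1, LPL, PPARG and CEBPA were higher in all heat stress than in all thermoneutral libraries (LPL 5202 to 7973 against 2092 to 4358 CPM), PNPLA2 (2474 to 4489 against 5151 to 12264 CPM) and LPIN1 (123 to 273 against 299 to 709 CPM) were lower, and FABP4 and ADIPOQ overlapped. Marker genes of preadipocytes and fibroblasts (6 of 6 listed) summed to 14327 to 18931 CPM in thermoneutral and 10436 to 13227 CPM in heat stress libraries. T cell markers (6 of 6) summed to 145 to 156 and 89.4 to 102 CPM, smooth muscle markers (5 of 5) to 637 to 927 and 307 to 603 CPM, cycling cell markers (6 of 6) to 59.2 to 109.7 and 33.6 to 51.0 CPM, and erythrocyte markers (4 of 6, HBAD and ALAS2 not listed) to 366 to 833 and 198 to 347 CPM. The sums of these 5 lists were lower in all heat stress than in all thermoneutral libraries, and fewer cells of a type and less RNA per cell cannot be told apart in bulk tissue. The sums overlapped between the groups for endothelium (7 of 7, 2505 to 3329.7 and 2892 to 3468 CPM) and B cells (4 of 4, 31.8 to 53.2 and 22.1 to 43.1 CPM). They also overlapped for macrophages and dendritic cells (7 of 7, 838 to 1149 and 602 to 890.3 CPM) and heterophils and thrombocytes (4 of 4, 125 to 325 and 89.6 to 132 CPM). Within these lists KDR, TIE1 and FLT1 of endothelium were higher in all heat stress than in all thermoneutral libraries. PAX5, CD79B and CXCR5 were lower throughout, while BLNK, most of the B cell sum, overlapped. CSF1R, XCR1 and FLT3 of macrophages and dendritic cells were lower throughout. The remaining genes of these lists overlapped. Skeletal muscle (2 of 7 listed, with CKM, MYLPF, TNNC2, MYOG and CKMT2 not listed) summed to 33.7 to 60.3 and 12.9 to 24.8 CPM, mostly ACTA1. ALB, a liver gene, stood at 190.4 CPM in heat stress 2 and 71.3 CPM in heat stress 3, against 1.33 to 13.1 CPM in the other libraries. TTR, the other liver marker listed, was at 1.24 to 5.85 CPM in heat stress and 0.10 to 0.57 CPM in thermoneutral libraries. The liver markers FGA and FGB were not listed.

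With edgeR's quasi-likelihood test and adjustment over all genes, 0 of the 10 genes passed the FDR threshold of 0.05, where 0.176% of all genes tested passed. At an unadjusted p under 0.05 there were 3 of 10, CDC37 higher and HSPA5 and HSP90AB1 lower in heat stress, against 18.8% of all genes tested (9.56% higher and 9.20% lower). The same 3 were the genes whose groups did not overlap, 1 above and 2 below, against 25.0% of all genes (12.6% above and 12.4% below). DESeq2 passed these 3 at an adjusted p under 0.05, against 9.18% of genes with an adjusted p (5.09% higher and 4.09% lower). The median log2 fold change was -0.04 over the 10 genes and -0.0045 over all genes tested, and the median size of change was 0.19 and 0.20. The median size of change was thus close to that of all genes. Although 3 in 10 lies above these shares, most of all in DESeq2, each count rests on the same 3 genes. With 10 genes this is too few to read as an excess. The 10 genes, all at 25.1 CPM or more, also differ from all genes tested in level. The median SE was 0.12 over genes of at least 10 CPM and 0.17 over all genes tested. None of the 10 is in the authors' deposited table of 742 genes. By its name, that table was set by a fold change of 2 together with an unadjusted p.

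**Figure D1:**
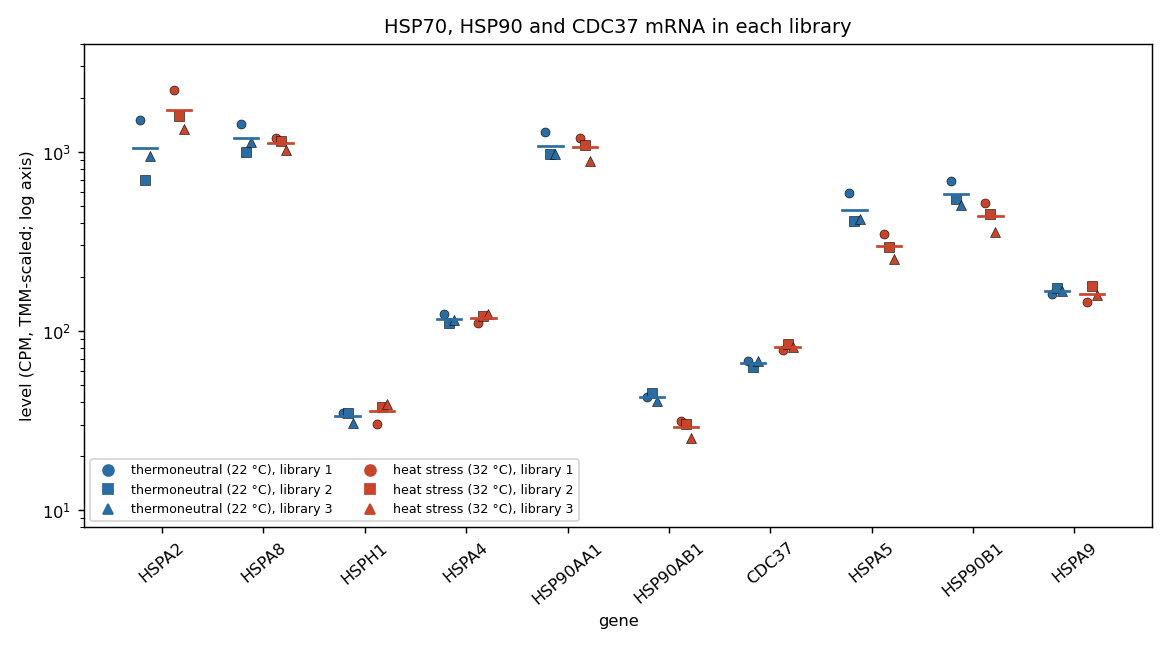
Level of each gene in CPM (log axis) in the 3 thermoneutral (blue) and 3 heat stress (red) libraries, with a bar at each group's mean and a symbol for each library number. HSPA2, HSPA8 and HSP90AA1 lie between 695 and 2214 CPM, HSPA5 and HSP90B1 lie between 252 and 685 CPM, and HSP90AB1 and HSPH1 stay under 50 CPM.

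Fat carried large amounts of a few of these mRNAs. Compared per length, in the authors' TPM (transcripts per 1e+06 transcripts), HSPA2 averaged 1211 TPM over the 6 libraries (589 to 1984), HSPA8 averaged 1100.5 TPM (931 to 1297) and HSP90AA1 averaged 985 TPM (840.5 to 1136). These 3 genes were not separated by their ranges, although HSPA8 was above HSP90AA1 in 6 of 6 libraries, and HSPA2 was above HSPA8 in 3 of 6, the 3 heat stress ones. HSP90AA1 and HSPA8 stood between rank 103 and rank 159 of the 15491 genes in every library, and HSPA2 between rank 51 and rank 201. The ER pair followed, HSP90B1 at 375 TPM (269 to 481) and HSPA5 at 333 TPM (223 to 486), with overlapping ranges and all libraries below the lowest of HSP90AA1. Mitochondrial HSPA9 (108 TPM, 98.2 to 125) overlapped CDC37 (94.5 TPM, 77.7 to 114). HSPA4 (58.5 TPM, 53.7 to 63.5) was set apart on both sides. HSP90AB1 (27.2 TPM, 19.4 to 33.5) and HSPH1 (20.9 TPM, 18.2 to 24.1) came last, with overlapping ranges. The 10 genes together made up 0.343% to 0.493% of all TPM in thermoneutral and 0.383% to 0.53% in heat stress libraries.

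HSPA2 (gene ID 423504), which RefSeq's gene table for the build GRCg7b lists with the synonym HSP70, was the most abundant of the 10 in heat-stressed fat and the most variable. Its level was 1505, 695 and 949.7 CPM in thermoneutral libraries 1, 2 and 3 and 2214, 1587 and 1334 CPM in heat stress libraries 1, 2 and 3. The groups overlapped through thermoneutral 1, which was above heat stress 3, while the other thermoneutral libraries were below all heat stress libraries. The means were 1049.9 ± 414 and 1712 ± 453 CPM (SD, n = 3 each), a log2 fold change of 0.71 ± 0.31 (SE) that did not pass (edgeR FDR = 0.286). Its 95% interval, from -0.03 to 1.44, was the widest of the 10 and holds both no change and a change of over 2-fold. The estimate leaned on single libraries: it was 1.06 (FDR = 0.134) without thermoneutral 1, 0.47 (FDR = 0.497) without thermoneutral 2 and 0.48 (FDR = 0.475) without heat stress 1.

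HSPA8 (gene ID 395853), the constitutive cytosolic HSP70 that RefSeq lists as HSC70, was steadier. It stood at 1432, 1002 and 1132 CPM in thermoneutral and 1198, 1142 and 1027 CPM in heat stress libraries, and the heat stress values lay inside the thermoneutral range. The log2 fold change was -0.08 ± 0.16 (FDR = 0.82), with a 95% interval from -0.45 to 0.28.

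The ratio of HSPA2 to HSPA8 separated the groups where neither gene did. Like HSPA2, HSPA8 was higher in thermoneutral 1 (1432 CPM) than in heat stress 3 (1027 CPM), the libraries through which the HSPA2 groups overlapped. On TPM it was 0.96, 0.633 and 0.767 in thermoneutral libraries 1, 2 and 3 and 1.69, 1.27 and 1.19 in heat stress libraries 1, 2 and 3. HSPA2 was thus below HSPA8 in every thermoneutral library and above it in every heat stress library, and it made up 38.8% to 49.0% of the summed HSPA2 and HSPA8 TPM in the former and 54.3% to 62.8% in the latter. The ratio was 1.76-fold higher in heat stress (log2 difference 0.82; exact two-sided permutation test, p = 0.1, adjusted p = 0.133 over the 4 ratios compared). With 3 libraries against 3, the exact permutation test cannot give less than p = 0.1, so it cannot pass a threshold of 0.05. These genes have similar sequences, and how the authors' counting treated reads that map to several genes is not given in the sources used here, so their split is uncertain.

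HSPA4 (gene ID 416339) and HSPH1 (gene ID 418917) belong to the HSP110 branch, which exchanges nucleotide on HSP70. HSPA4 was the least variable of the 10, at 125, 111 and 115 CPM in thermoneutral and 110.3, 121 and 124 CPM in heat stress libraries. Its log2 fold change was 0.02 ± 0.08 (FDR = 0.924), and the 95% interval from -0.18 to 0.22 was narrow. HSPH1, in mammals a strongly heat-inducible gene, was at 34.9, 34.7 and 30.7 CPM in thermoneutral and 30.0, 37.4 and 39.1 CPM in heat stress libraries. Heat stress libraries held both its lowest and its 2 highest values, and its log2 fold change was 0.09 ± 0.12 (FDR = 0.761), with an interval from -0.21 to 0.38.

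Mitochondrial HSPA9 (gene ID 416183), known as mortalin, pulls imported proteins into the matrix and serves iron-sulphur cluster assembly. It was at 162, 174 and 167 CPM in thermoneutral and 145, 179 and 159.7 CPM in heat stress libraries, with the lowest and the highest value both in heat stress. Its log2 fold change was -0.05 ± 0.10 (FDR = 0.816), with an interval from -0.28 to 0.18. The TPM ratio of HSPA9 to HSPA8 was 0.0778 to 0.12 in thermoneutral and 0.0836 to 0.108 in heat stress libraries, and the groups overlapped (exact two-sided permutation test, p = 1).

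**Figure D2:**
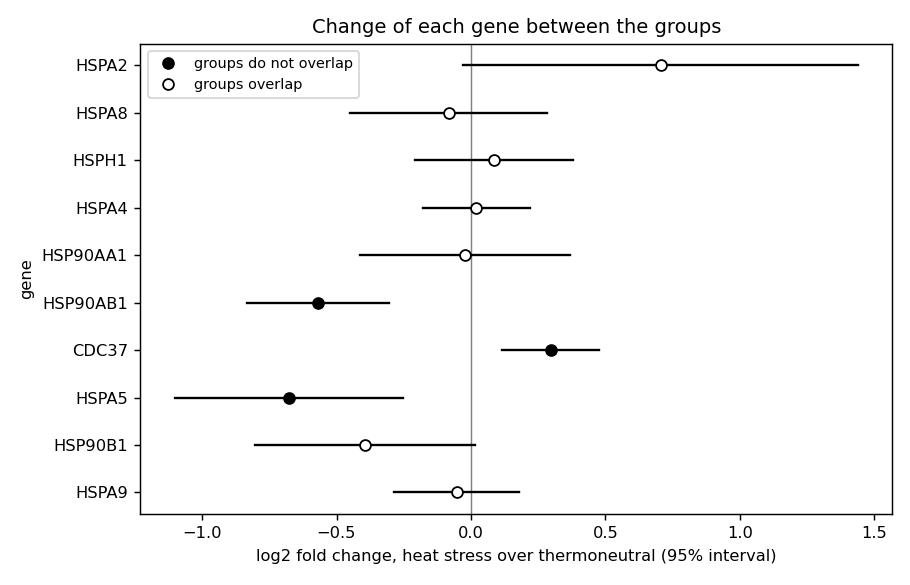
Log2 fold change of each gene, heat stress over thermoneutral, with its 95% interval from edgeR's quasi-likelihood fit (n = 3 libraries per group), and filled points where the groups do not overlap. HSP90AB1, HSPA5 and CDC37 have intervals that leave out 0, and HSPA2 has the widest interval.

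The cytosolic HSP90 genes differed widely in level. HSP90AA1 (gene ID 423463), the inducible form in mammals, was at 1283, 972 and 969 CPM in thermoneutral and 1194, 1087 and 894 CPM in heat stress libraries. The groups overlapped, with a log2 fold change of -0.02 ± 0.17 (FDR = 0.957) and an interval from -0.41 to 0.37. HSP90AB1 (gene ID 396188), the constitutive form in mammals, was at 42.9, 45.2 and 40.6 CPM in thermoneutral and 31.5, 30.1 and 25.1 CPM in heat stress libraries. All heat stress values were below all thermoneutral values, and the spread within each group was small (42.9 ± 2.29 and 28.9 ± 3.35 CPM). This 1.48-fold lower level (log2 fold change -0.57 ± 0.11, interval -0.83 to -0.31) had the smallest p of the 10 genes and stood just outside the threshold in edgeR (FDR = 0.0697). In the authors' deposited table its fold change was -1.48 and its adjusted p 0.000723. DESeq2, run here on the same counts, gave nearly the same value, 0.000724. Both called 1364 of 14861 genes at an adjusted p under 0.05. The authors' values and those of DESeq2 are therefore not separate results, here or for the genes below. Over the alternatives without DESeq2 the adjusted p ran from 0.0596 to 0.187.

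HSP90AB1 was a small part of cytosolic HSP90 mRNA in these files, 2.12% to 3.69% of the summed TPM of HSP90AA1 and HSP90AB1. The TPM ratio of HSP90AA1 to HSP90AB1 was 36.1, 26.1 and 29.0 in thermoneutral libraries 1, 2 and 3 and 46.3, 43.8 and 43.2 in heat stress libraries. It was higher in every heat stress library than in any thermoneutral one, by 1.47-fold on average (log2 difference 0.56; exact two-sided permutation test, p = 0.1, adjusted p = 0.133). HSP90AA1 and HSP90AB1 are close paralogs, so both their levels and their ratio are uncertain for the same reason as those of HSPA2 and HSPA8.

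CDC37 (gene ID 395430) loads protein kinases onto HSP90. It was at 68.1, 62.5 and 68.0 CPM in thermoneutral and 77.7, 84.4 and 81.7 CPM in heat stress libraries, so the groups did not overlap. It was the only one of the 10 above without overlap, from 66.2 ± 3.17 to 81.3 ± 3.35 CPM, a small difference with a small spread. The log2 fold change was 0.30 ± 0.08, or 1.23-fold, with an interval from 0.12 to 0.48 (edgeR FDR = 0.112). The authors' deposited table gives it an adjusted p of 0.0198, and DESeq2, run here on the same counts, gave nearly the same value. Over the alternatives without DESeq2 the adjusted p ran from 0.0594 to 0.288.

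Both ER members were lower on average in heat stress. HSPA5 (gene ID 396487), also called GRP78 or BiP, is the ER HSP70 that holds the sensors of the unfolded protein response inactive. It was at 588, 413 and 423 CPM in thermoneutral and 346, 293 and 252 CPM in heat stress libraries, and every heat stress library was below every thermoneutral one. The means were 475 ± 98.4 and 297 ± 47.6 CPM, a 1.60-fold lower level (log2 fold change -0.68 ± 0.18, interval -1.10 to -0.25, edgeR FDR = 0.118). Its estimate was -0.49 without thermoneutral 1, the highest library. The authors' deposited table gives it an adjusted p of 0.00864, and DESeq2, run here on the same counts, gave nearly the same value. Over the alternatives without DESeq2 the adjusted p ran from 0.0807 to 0.297.

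HSP90B1 (gene ID 374163), the ER HSP90 also called GRP94, folds integrins and Toll-like receptors. It was at 685, 545 and 507 CPM in thermoneutral and 516, 448 and 357 CPM in heat stress libraries, with an overlap of heat stress 1 and thermoneutral 3 only. Its log2 fold change was -0.40 ± 0.17 (edgeR FDR = 0.283), with an interval from -0.80 to 0.01. The estimate was -0.26 without thermoneutral 1, -0.26 without heat stress 3 and -0.52 without heat stress 1. The TPM ratio of HSPA5 to HSP90B1 was 1.01, 0.892 and 0.98 in thermoneutral and 0.789, 0.77 and 0.829 in heat stress libraries. HSPA5 was the lower of the pair in 5 of 6 libraries, all but thermoneutral 1. The ratio was 1.21-fold lower in heat stress (log2 difference -0.27, exact two-sided permutation test, p = 0.1, adjusted p = 0.133). The marker sum of preadipocytes and fibroblasts, cells that secrete much collagen, was lower in heat stress libraries, as given above. Most of that sum was the collagen mRNAs COL1A1 and COL1A2. DCN, LUM, COL1A2 and DPT were lower in all heat stress libraries, while PDGFRA and COL1A1 overlapped. The part of these cells in the ER values was not tested.

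**Figure D3:**
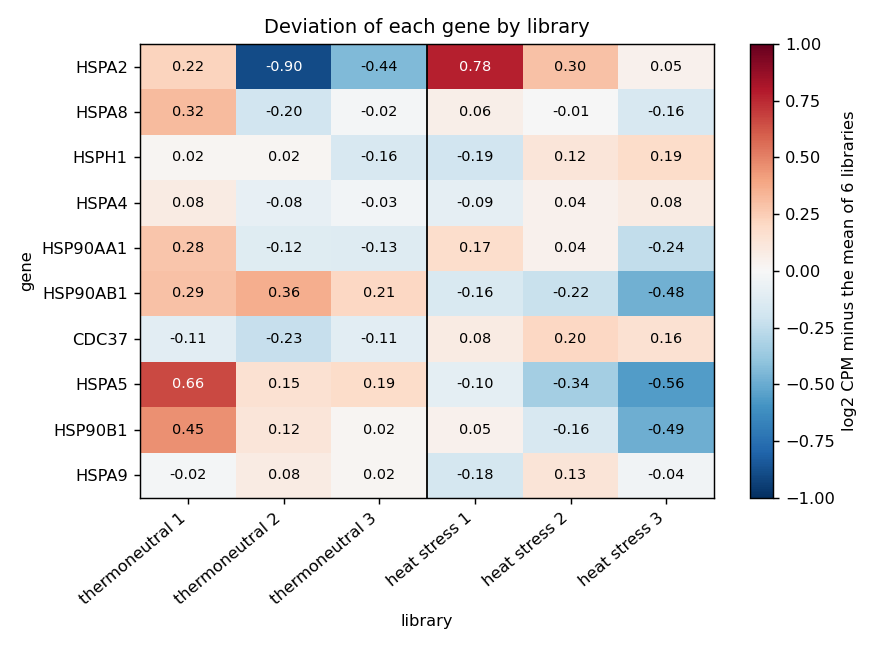
Log2 CPM of each gene minus its own mean over the 6 libraries, with 3 thermoneutral columns to the left of the line and 3 heat stress columns to the right. Thermoneutral 1 is above the mean for HSPA5 (0.66), HSP90B1 (0.45), HSPA8 (0.32), HSP90AB1 (0.29) and HSP90AA1 (0.28), and heat stress 3 is below it for the same genes.

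Libraries differed across several genes at once, and this did not follow the groups alone. Thermoneutral 1 was the highest of the 6 libraries for 5 of the 10 genes (HSPA4, HSPA5, HSPA8, HSP90AA1 and HSP90B1) and heat stress 3 the lowest for 4 (HSPA5, HSP90AA1, HSP90AB1 and HSP90B1). Of the 45 pairs among the 10 genes, HSPA8 and HSP90AA1 had the most similar pattern, with a root mean square difference of 0.08 between their centred log2 CPM over 6 libraries, against 0.17 and 0.18 for their own deviations from their means. HSPA5 and HSP90B1 differed by 0.15, against own deviations of 0.40 and 0.28. HSPA4 and HSPH1 differed by 0.10, against own deviations of 0.07 and 0.14. Their correlation over the 6 libraries was 0.72, and both varied little.

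Outside the 10 genes, the closest patterns by the same measure were sought among 8974 genes of at least 10 CPM. For HSPA2 they were ADCYAP1R1, the receptor of the neuropeptide PACAP (difference 0.13), STON2, an endocytosis adaptor (0.13), and HECW1, a ubiquitin ligase (0.15), against HSPA2's own deviation of 0.54. For HSPA5 they included carboxypeptidase Z (CPZ, 0.10) and OLFML3 (0.12), a secreted matrix protein. For HSPA8 they were COX7C (0.05), C2CD2 (0.05) and TRIM69 (0.05). HSP90AA1 was nearest to SAYSD1 (0.05), ECM2 (0.06) and NDUFA8 (0.06), and HSPH1 to STX17 (0.02), MYH9 (0.04) and ACAD9 (0.04). These names describe 6 libraries and carry no test.

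**Figure D4:**
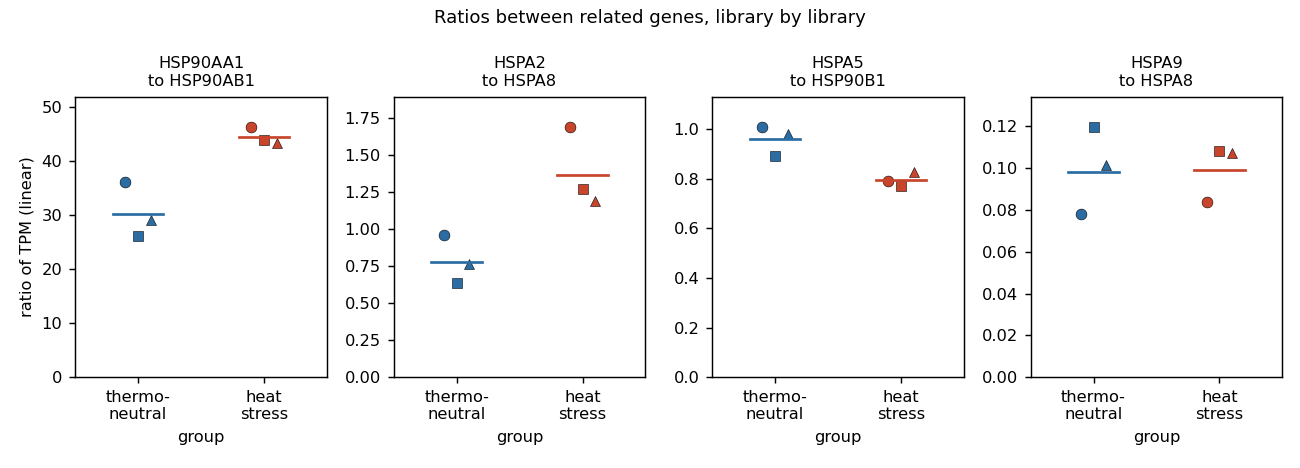
Ratios of TPM between related genes (linear axes from 0), 1 point per library, with a bar at each group's geometric mean. The ratios of HSP90AA1 to HSP90AB1 and of HSPA2 to HSPA8 are higher in all 3 heat stress libraries, that of HSPA5 to HSP90B1 is lower, and that of HSPA9 to HSPA8 overlaps.

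The partners of these chaperones were followed through 6 lists holding 74 different tested genes, 10 of them in 2 or more lists. Symbols sought but not listed were dropped. In edgeR 0 of the 74 passed the FDR over all genes, where 0.176% of all genes tested passed. DESeq2 called 2, 1 higher and 1 lower, against 9.18% of genes with an adjusted p. At an unadjusted p under 0.05 in edgeR there were 11, 5 higher and 6 lower. That share of unadjusted calls, 14.9%, was below the 18.8% of all genes tested.

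HSP90 cochaperones and paralogs held the largest log2 fold change of the 74 genes. FKBP5 (gene ID 421186), an immunophilin of the HSP90 complex with steroid receptors and a known glucocorticoid target, was at 56.4, 94.7 and 90.7 CPM in thermoneutral and 38.2, 23.9 and 40.5 CPM in heat stress libraries. No heat stress library reached the lowest thermoneutral one, and the level was 2.36-fold lower (log2 fold change -1.24 ± 0.26, edgeR FDR = 0.0801). DESeq2 passed it at an adjusted p of 0.000257, and over the alternatives the adjusted p ran from 0.000257 to 0.215. The other 3 at an unadjusted p under 0.05 were FNIP1, which slows HSP90's ATP cycle (-0.42 ± 0.14), PTGES3, the p23 cochaperone that steadies closed HSP90 (0.18 ± 0.07), and UNC45A, a myosin chaperone that works with HSP90 (0.28 ± 0.11). The 23 tested genes of this list had a median log2 fold change of 0.03, with 13 positive and 10 negative, and 0 passed the FDR in edgeR. Genes at an unadjusted p under 0.05 made up 17.4% of the list, against 18.8% of all genes tested.

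Known HSF1 targets outside the 10 genes had 2 of 10 at an unadjusted p under 0.05, both higher, and 0 past the FDR in edgeR. That share, 20%, is near the 18.8% of all genes. DNAJB1 and CRYAB, also sought, were not listed. SERPINH1 (gene ID 396228), the ER chaperone of collagen, was at 1153, 1005 and 1141 CPM in thermoneutral and 1591, 1458 and 1344 CPM in heat stress libraries. The groups did not overlap, and the level was 1.33-fold higher (log2 fold change 0.41 ± 0.12, edgeR FDR = 0.133). DESeq2 passed it at an adjusted p of 0.00484, and over the alternatives the adjusted p ran from 0.00484 to 0.28. The small heat shock proteins HSPB8 (0.53 ± 0.21, FDR = 0.246) and HSPB1 (0.48 ± 0.24, FDR = 0.328) came next. Each was highest in heat stress 1, also the highest library for HSPA2, and their groups overlapped. DNAJA1, a J-domain partner of HSP70, was at 478 CPM in heat stress 1 and at 272 to 309 CPM in the other 5 libraries.

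**Figure D5:**
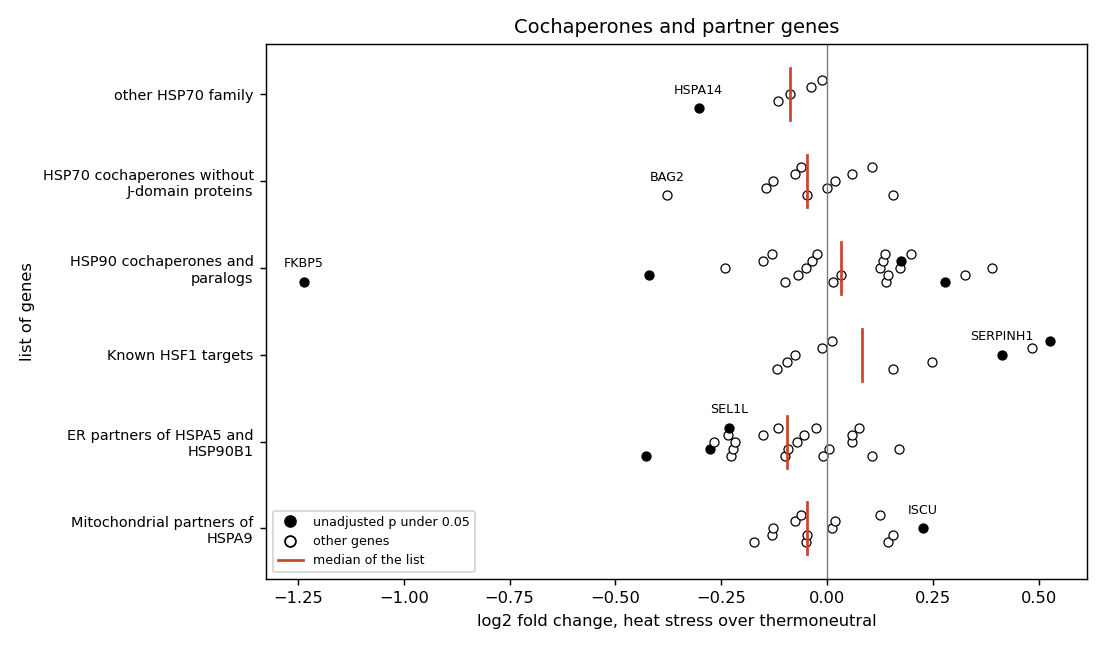
Log2 fold change of each tested gene in 6 lists of partner genes, with filled points at an unadjusted p under 0.05 and a red bar at each list's median. FKBP5 lies farthest from 0 at -1.24, the medians lie between -0.09 and 0.08, and the gene of smallest p is named in each list.

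Of 22 ER partners of HSPA5 and HSP90B1, 16 had negative and 6 positive log2 fold changes, with a median of -0.09, where 49.4% of all genes tested were positive, and 0 passed the FDR in edgeR or DESeq2. At an unadjusted p under 0.05 there were 3, all lower, or 13.6% against 18.8% of all genes. SEL1L, of the machinery that removes misfolded ER proteins, had a log2 fold change of -0.23 ± 0.08, SDF2L1, a cofactor of HSPA5, of -0.28 ± 0.09, and CRELD2, an unfolded protein response target, of -0.43 ± 0.15. Groups of 4 of the 22 genes did not overlap, all 4 lower in heat stress, where 25.0% of all genes did not overlap and 12.4% were below. HERPUD1, also sought for this list, did not pass the filter on low counts.

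Of 10 other HSP70 family symbols sought, 5 were listed, and HSPA1A, HSPA1B, HSPA1L, HSPA6 and HSPA12B were not. Among the 5 genes, 1 had an unadjusted p under 0.05 (20%, against 18.8% of all genes) and 0 passed the FDR in edgeR or DESeq2. It was HSPA14, a ribosome-bound member, which was at 17.4, 19.9 and 19.4 CPM in thermoneutral and 13.8, 16.2 and 15.9 CPM in heat stress libraries, with no overlap. HSPA14 had a log2 fold change of -0.30 ± 0.12 (FDR = 0.229), HYOU1, an ER member, of -0.12 ± 0.10 and HSPA13 of -0.09 ± 0.12. HSPA12A (-0.04 ± 0.11) and HSPA4L (-0.01 ± 0.12) were near 0. All 5 values were negative, where 49.4% of all genes tested were positive. Signs were not stable: over the alternatives HSPA13 reached 0.0079, HSPA12A 0.051 and HSPA4L 0.087. Of 11 HSP70 cochaperones other than J-domain proteins, 0 had an unadjusted p under 0.05, against 18.8% of all genes. DESeq2 called 0 of them, against 9.18% of genes with an adjusted p. Those of smallest p were BAG2 (-0.38 ± 0.18), BAG3 (0.16 ± 0.13), a heat-inducible exchange factor, and the ubiquitin ligase STUB1 (0.11 ± 0.09). Of 13 mitochondrial partners of HSPA9, 1 had an unadjusted p under 0.05 (7.69%, against 18.8% of all genes) and 0 passed the FDR in edgeR or DESeq2. It was ISCU, the scaffold of iron-sulphur clusters, which was at 149 to 166 CPM in thermoneutral and 181 to 190 CPM in heat stress libraries (log2 fold change 0.23 ± 0.08, FDR = 0.19). TRAP1, the mitochondrial HSP90, stood at 0.14 ± 0.08 and the cysteine desulfurase NFS1 at -0.17 ± 0.10.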

How the data were processed

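Abdominal fat of 3 thermoneutral and 3 heat stress libraries was compared, with groups and numbers taken from the sample titles. The submitters' processing notes name HISAT2 2.1.0, Bowtie2 2.3.4.1, StringTie 2.1.3b and the build GRCg6a, without roles. Strand use in counting is not given in the sources used here. The authors deposited gene-level read counts, not normalized, per the file headers. The deposited table also gives FPKM and TPM values, scaled by the authors for gene length and depth. The authors' deposited signed fold changes (a score, negative when lower) and p-values are quoted as theirs. The lowest count is 1, so genes at 0 in any library are not listed. Another 30 per-library columns were left unused.

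Counts were fitted over all genes with edgeR 4.0.16 (R 4.3.3), quasi-likelihood F test, TMM, filterByExpr and group as the only term, with Benjamini-Hochberg adjustment at 0.05. The code was tested on simulated data. Errors are SD over 3 libraries, or SE (log2 fold change over the square root of F). Intervals are 95%. Ratios used TPM and an exact permutation test. Alternatives used DESeq2 1.42.0, limma 3.58.1 on log2(value + 1), other scalings and filters, and left out 1 library at a time. No library was a copy of another in its group: the chi-square of their counts, divided by its degrees of freedom, was 34.4 to 98.2 for each pair. The 10 genes and all lists were chosen with earlier results of these data known. Named partner genes are, per list, up to 4 past the FDR or otherwise the 3 of smallest p, and the 3 nearest patterns for 5 of the genes, of which 1 is not reported here. UNC45A and DNAJA1 were named after their values were seen. Coordinates and sequences are not used here.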

Additional observations from a re-analysis of the deposited data

How the results depend on the processing

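DESeq2 called 3 of the 10 genes where edgeR called 0, with log2 fold changes of -0.68 (HSPA5), -0.57 (HSP90AB1) and 0.30 (CDC37), and 2 of the 74 partner genes where edgeR called 0. Over all genes, DESeq2 called 9.18% of those with an adjusted p and edgeR 0.176% of those tested. In every other alternative 0 of the 10 and 0 of the 74 passed, among them 6 fits that each left out 1 library. HSPA2, HSPA5, HSP90AB1, HSP90B1, CDC37 and HSPH1 kept their direction in all 14 alternatives. At an unadjusted p under 0.05 the count of 3 became 5 in DESeq2 and 5 with the library number as a replicate block. Both added HSP90B1 and HSPA2. The count was 4 with library totals in place of TMM and 4 with each limma fit, each time by adding HSPA2. Without 1 library it was 3 to 4. With the replicate block 0 of the 10 passed the FDR. The numbers used are those of the sample titles, and the deposited library names carry other numbers. Nothing in the labels ties same-numbered libraries together, so the numbers were not taken as pairs. Same-numbered libraries deviated together at correlations of 0.08, 0.25 and 0.04 across genes, and not every library correlated best with its own number. Small differences turned in sign. Limma on log2(TPM + 1), which moved the median of all genes to 0.08, gave 0.029 for HSPA8, 0.040 for HSPA9 and 0.079 for HSP90AA1, and library totals in place of TMM gave 0.0025 for HSP90AA1. Without 1 library HSPA4 ran from -0.023 to 0.070, HSPA8 from -0.20 to 0.073, HSPA9 from -0.13 to 0.019, HSP90AA1 from -0.12 to 0.12, and the log2 difference of the HSPA9 to HSPA8 ratio from -0.16 to 0.15. The cause of these changes was not tested. With 3 libraries per group, a change of the sizes seen here was not resolved at the FDR in edgeR, and the part of depth in this was not tested.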
